A study of Mus musculus with 16 samples.

Results

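The regions described here are 1731 stretches of acetylated chromatin in cultured mouse muscle stem cells that held a peak of H3K27ac in every library and ranked lower in both libraries of LncMyoD knockdown than in both control libraries. They came from 59960 merged H3K27ac regions on chromosomes 1 to 19 and X, of which 26113 held a peak of all 4 H3K27ac libraries and are called kept regions. In each library the kept regions were ranked by the largest fold enrichment of their peaks and given a percentile from 0 to 100. The regions were selected on these H3K27ac percentiles: a region was taken as lower when the lower control percentile exceeded the higher knockdown percentile by at least 5 points, and this difference is called its gap. Their H3K27ac values are therefore given as a description, with no test.

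Chromatin immunoprecipitation sequencing was carried out on satellite cells, which are muscle stem cells, grown in culture from hindlimb muscle of C57BL/6 mice. The labels mark each library as LncMyoD knockdown (KD) or control (Ctrl) after 48 h of small interfering RNA, and depletion of LncMyoD was not measured in these files. The treatment text names LncMyoD as the target for every sample, controls included, so the sources used here do not tell what the Ctrl cells were given. Each group had 2 H3K27ac and 2 MyoD libraries, numbered 1 and 2, and the labels leave it unsaid whether these were different animals or cultures, so their spread may be technical only.

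H3K27ac is the acetylation of lysine 27 of histone H3, a mark of active promoters and enhancers. MyoD is the basic helix-loop-helix transcription factor that drives muscle differentiation, and it binds E-boxes, short motifs of the form CANNTG. LncMyoD is a noncoding transcript from the DNA upstream of Myod1, the gene that encodes MyoD. A fold enrichment is the signal at a peak's summit over background as the authors' peak caller wrote it. It is comparable within a peak list and not between lists, which is why ranks were used.

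A minority of the regions overlapped a promoter window by at least 1 base. Shown are 6 of these promoters, chosen for the largest gaps or for a MyoD region that also overlapped the window. The windows are the 250 bases before the annotated start of the gene, from RefSeq on GRCm38.p6 (the assembly that mm10 represents), written 5′ to 3′ on the strand of the gene. Ppib (chr9:66059919-66060168, plus strand), Metrnl (chr11:121702177-121702426, plus), Mustn1 (chr14:30879007-30879256, plus) and Cst3 (chr2:148875513-148875762, minus) had the largest gaps among regions over a promoter. Snai1 (chr2:167537945-167538194, plus) and Pstpip1 (chr9:56089726-56089975, plus) also carried a MyoD region over the window, as did Mustn1. Cst3, Snai1 and Pstpip1 were singled out after their values were seen. Capitals mark the motifs searched for: CAGCTG, and CAGGTG, which reads CACCTG on the other strand. At Snai1 the H3K27ac region starts within the window, at chr2:167538124, and the marked CACCTG lies before it, outside the region.
Ppib: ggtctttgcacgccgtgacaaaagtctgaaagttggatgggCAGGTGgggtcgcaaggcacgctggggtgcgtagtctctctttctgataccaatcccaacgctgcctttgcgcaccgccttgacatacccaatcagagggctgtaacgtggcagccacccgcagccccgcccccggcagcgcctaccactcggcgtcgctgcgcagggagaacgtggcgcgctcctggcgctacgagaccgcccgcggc
Metrnl: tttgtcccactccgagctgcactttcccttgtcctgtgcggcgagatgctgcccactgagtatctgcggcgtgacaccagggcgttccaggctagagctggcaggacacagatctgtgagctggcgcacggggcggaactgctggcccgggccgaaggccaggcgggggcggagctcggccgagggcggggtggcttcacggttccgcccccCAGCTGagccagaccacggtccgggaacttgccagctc
Mustn1: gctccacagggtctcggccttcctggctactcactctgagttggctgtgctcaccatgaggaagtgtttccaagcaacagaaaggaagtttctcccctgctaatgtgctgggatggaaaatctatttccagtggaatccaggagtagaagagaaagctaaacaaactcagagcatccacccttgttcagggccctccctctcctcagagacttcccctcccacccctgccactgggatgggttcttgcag
Cst3: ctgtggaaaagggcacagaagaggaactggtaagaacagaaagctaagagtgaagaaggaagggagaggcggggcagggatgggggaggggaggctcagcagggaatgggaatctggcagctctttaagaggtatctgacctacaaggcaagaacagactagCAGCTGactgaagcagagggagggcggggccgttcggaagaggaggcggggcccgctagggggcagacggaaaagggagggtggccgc
Snai1: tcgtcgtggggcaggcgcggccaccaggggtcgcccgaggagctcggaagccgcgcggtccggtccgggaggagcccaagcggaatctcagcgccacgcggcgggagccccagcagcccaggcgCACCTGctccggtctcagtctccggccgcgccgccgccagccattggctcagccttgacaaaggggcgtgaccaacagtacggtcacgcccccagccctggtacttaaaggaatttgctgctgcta
Pstpip1: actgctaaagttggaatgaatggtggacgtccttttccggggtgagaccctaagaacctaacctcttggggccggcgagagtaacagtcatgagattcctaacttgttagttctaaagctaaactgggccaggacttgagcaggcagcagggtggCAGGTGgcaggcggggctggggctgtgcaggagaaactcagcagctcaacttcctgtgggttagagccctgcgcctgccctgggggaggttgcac

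Ppib encodes cyclophilin B, a protein-folding enzyme of the endoplasmic reticulum. Its region, which covers the start of the gene, had H3K27ac fold enrichments of 5.81 and 5.23 in KD 1 and KD 2, against 10.4 and 10.97 in Ctrl 1 and Ctrl 2. The percentiles were 23.5 and 29.0 in the KD libraries, against 73.7 and 72.4 in the Ctrl libraries. The region thus sat in the lower part of both KD rankings and in the upper part of both Ctrl rankings. In bulk chromatin, fewer cells with the mark and less mark per cell cannot be told apart. The window is rich in CG pairs, with 25 of them and a GC content of 65.2%, and holds 1 CAGGTG.

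Metrnl encodes a secreted factor related to meteorin. Its percentiles were 16.8 and 18.5 in KD 1 and KD 2, against 60.7 and 47.4 in Ctrl 1 and Ctrl 2, with 20 CG pairs and 1 CAGCTG in the window. Mustn1 encodes a small nuclear protein of muscle and skeleton. Its region had fold enrichments of 8.76 and 7.09 in KD 1 and KD 2, against 13.8 and 13.3 in Ctrl 1 and Ctrl 2, and percentiles of 53.9 and 52.7 against 87.7 and 81.9. The Mustn1 window is of the opposite kind in base composition, with 1 CG pair, a GC content of 53.2% and none of the motifs searched.

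Cst3, the gene of the protease inhibitor cystatin C, had percentiles of 28.7 and 1.21 in KD 1 and KD 2, against 52.9 and 53.7 in Ctrl 1 and Ctrl 2. The KD libraries lay far from each other there, while the Ctrl libraries nearly coincided. Snai1, which encodes a zinc finger repressor of epithelial genes, had percentiles of 24.3 and 8.11 in KD 1 and KD 2, against 44.1 and 58.6 in Ctrl 1 and Ctrl 2. Pstpip1, the gene of a cytoskeletal adaptor protein, had 45.5 and 40.6 in the KD libraries, against 67.3 and 64.0 in the Ctrl libraries.

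MyoD at these promoters did not rank lower by the same 5-point rule. At the Snai1 window the MyoD percentile, ranked among the MyoD regions of all 4 MyoD libraries, was 86.1 and 64.0 in KD 1 and KD 2, against 69.1 and 24.8 in Ctrl 1 and Ctrl 2. For Pstpip1 it was 17.2 and 46.5 in the KD libraries, against 18.6 and 16.6 in the Ctrl libraries. At Mustn1 it was 50.6 and 76.0 in the KD libraries, against 56.6 and 66.1 in the Ctrl libraries. KD and Ctrl values overlapped at each of the 3 promoters.

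The 1731 regions are 6.63% of the kept regions, and 1830 regions (7.01%) met the same rule in the other direction. When each KD library was paired with a Ctrl library, the rule found 2224 regions (8.52%) with KD 1 and Ctrl 1 above KD 2 and Ctrl 2, and 2150 regions (8.23%) with KD 2 and Ctrl 2 above. It found 1304 regions (4.99%) with KD 1 and Ctrl 2 above KD 2 and Ctrl 1, and 1396 regions (5.35%) with KD 2 and Ctrl 1 above. The number of regions lower in KD therefore lay inside the range of the 4 mixed pairings of libraries. A count of this size was reached by pairings that mix the groups, so the values below describe these libraries.

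**Figure D1:**
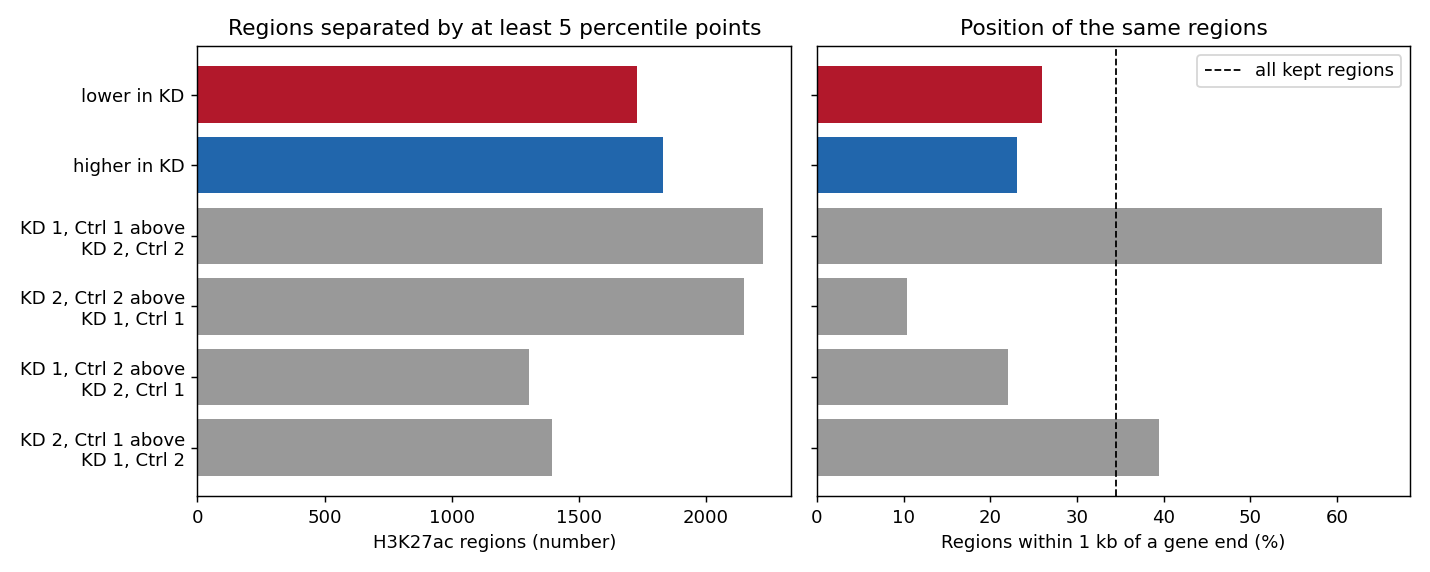
Number of kept H3K27ac regions separated by at least 5 percentile points (left, horizontal axis in regions) and the percentage of the same regions within 1 kb of a gene end (right), for the regions lower in KD, the regions higher in KD and the 4 mixed pairings of libraries. The 1731 regions lower in KD lie between the smallest and the largest mixed pairing, and 25.9% of them lie near a gene end, against 34.5% of all kept regions (dashed line).

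Most gaps were small. The gap had a median of 8.97 points, with quartiles of 6.74 and 12.4, and reached 43.9. It was at least 10 points in 693 regions, at least 20 in 95, at least 30 in 11 and at least 40 in 3. The regions just inside the threshold, assigned to Tlr3, Bod1 and Sypl, had gaps of 5.015, 5.015 and 5.007. Those just outside, assigned to Plbd2, Cpeb3 and Anxa4, had 4.999, 4.992 and 4.988, so the boundary runs through a dense set of regions. Regions with equal fold enrichment share a percentile, and the largest such tie spanned 1.96 to 3.30 points in the H3K27ac libraries.

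Both KD libraries took part in setting the gap. The higher KD percentile was that of KD 1 in 1038 regions and of KD 2 in 693, and the lower Ctrl percentile was that of Ctrl 1 in 1015 and of Ctrl 2 in 716. The median percentile of the regions was 29.8 in KD 1 and 27.1 in KD 2, against 47.9 in Ctrl 1 and 50.2 in Ctrl 2. They were thus near the middle of the Ctrl rankings and in the lower part of the KD rankings. Median fold enrichments were 6.32 and 5.23 in KD 1 and KD 2, against 6.88 and 7.99 in Ctrl 1 and Ctrl 2. Over all kept regions these medians were 8.37 and 6.92 in the KD libraries, against 7.06 and 7.99 in the Ctrl libraries, so the lists differ in level before any region is chosen. In 1201 of the 1731 regions both KD fold enrichments were also below both Ctrl values without ranking. The regions were chosen on ranks of these same values, and fold enrichments are not comparable between lists. This count is therefore a description and no further evidence of a lower level in KD.

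The regions were not the strongest ones. When the kept regions were divided by their mean percentile over the 4 libraries into 5 equal groups, the share lower in KD was 7.18%, 10.2%, 8.73%, 5.59% and 1.44% from the weakest to the strongest group. The share higher in KD ran alike, at 7.85%, 9.86%, 9.23%, 6.38% and 1.72%. The median of this mean percentile was 37.6 in the regions lower in KD and 38.6 in those higher in KD. It was 36.3 to 45.7 in the mixed pairings, against 48.8 in all kept regions. Low strength thus came with every use of the rule and was not particular to the regions lower in KD. Their median width was 1543 bp, with a range of 345 to 12943 bp, against 1487 bp in regions higher in KD and 1676 bp in all kept regions. The bases under peaks within a region had a median of 1298 in KD 1 and 763 in KD 2, against 1220 in Ctrl 1 and 1338 in Ctrl 2. KD 2 had the fewest H3K27ac peaks of the 4 libraries, 39934 against 54008 in KD 1, 46207 in Ctrl 1 and 52998 in Ctrl 2, and its part in the ranks was not tested.

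By position, 1218 of the regions (70.4%) lay over a gene body, 320 (18.5%) within 50 kb of one and 193 (11.1%) farther away, against 72.3%, 17.9% and 9.78% of all kept regions. Gene ends, which include promoters, held fewer of them. Within 1 kb of either annotated gene end lay 449 of the regions, or 25.9% (exact 95% binomial interval 23.9% to 28.1%, counting error only). The share was 23.1% in regions higher in KD and 34.5% in all kept regions, so both directions of the comparison lay below the whole.

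The mixed pairings stood farther apart in position than the 2 directions of the group comparison. Gene ends held 65.2% of the regions with KD 1 and Ctrl 1 above and 10.4% of those with KD 2 and Ctrl 2 above. For KD 1 and Ctrl 2 above the share was 22.1%, and for KD 2 and Ctrl 1 above it was 39.5%. Libraries of the same number thus shared a ranking of gene ends against other regions. Without H3K27ac Ctrl 2 the share near gene ends in regions lower in KD was 41.4%, above that of all kept regions. It was 37.6% without KD 1, 19.04% without KD 2 and 18.4% without Ctrl 1, so this share depended on which libraries entered the rule.

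The promoter window of a gene was touched by 357 of the 1678 regions off chromosome 18 (21.3%), against 30.2% of kept regions. The regions overlapped 460 windows in all. Median GC content was 58.8%, against 60.8% in windows under all kept regions and 52.4% in all 32619 windows. The ratio of observed to expected CG pairs was 0.723, against 0.772 and 0.378, so these were CpG-rich promoters much like those of other acetylated regions. CAGCTG, on either strand since it is its own reverse complement, occurred in 79 of the 460 windows (17.2%), against 12.4% under all kept regions and 13.1% of all windows. It was more frequent still, at 19.005% of 221 windows, under the mixed pairing with KD 2 and Ctrl 2 above. It was less frequent with KD 1 and Ctrl 1 above (10.1%), KD 1 and Ctrl 2 above (13.6%) and KD 2 and Ctrl 1 above (12.8%). Under regions higher in KD it was 10.8%. The share thus lay inside the range of the mixed pairings, near its upper end. CAGGTG on either strand occurred in 13.5%, against 13.3% and 17.3%. The AP-1 motif TGANTCA on either strand was in 4.78%, against 4.36% and 6.78%, and the serum response element of Fos was in 0 windows. An E-box can share 2 letters with TGANTCA at its edge, and such matches were counted for each motif. A match describes letters and shows no binding.

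The 20 regions with the largest gap, from 28.0 to 43.9 points, were mostly inside genes. Of these, 16 lay over a gene body, 2 near one and 2 without a gene within 50 kb, and 3 lay within 1 kb of a gene end, those of Ppib, Metrnl and Mustn1. Their fold enrichments ran from 2.103 to 8.76 in the KD libraries, against 5.39 to 13.8 in the Ctrl libraries.

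**Figure D2:**
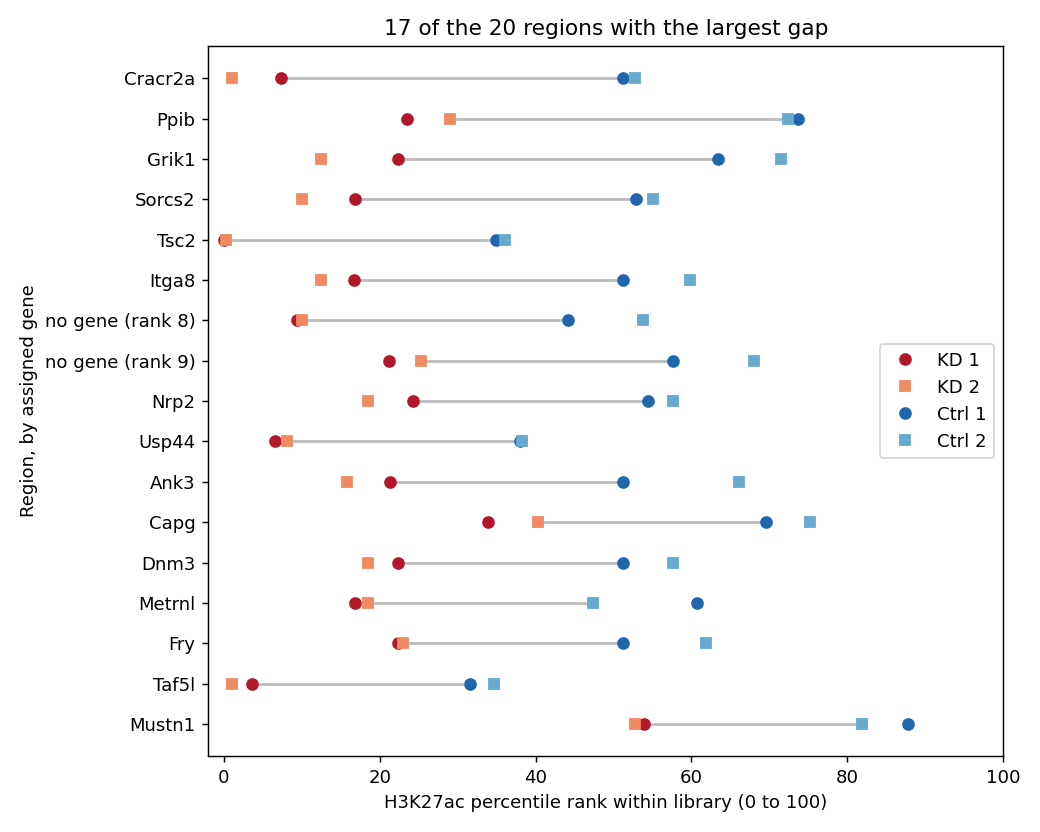
H3K27ac percentile rank within each library (horizontal axis, 0 to 100) for 17 of the 20 regions with the largest gap, named by assigned gene. Circles and squares are libraries 1 and 2 of KD (red) and Ctrl (blue), and the grey line is the gap, from 43.9 points at Cracr2a to 28.0 at Mustn1.

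Signalling genes were among them, with the largest gap at Cracr2a, which encodes a calcium-binding regulator of store-operated calcium entry. Its intragenic region (chr6:127565472-127566821) had percentiles of 7.29 and 1.08 in KD 1 and KD 2, against 51.2 and 52.7 in Ctrl 1 and Ctrl 2. Tsc2 encodes tuberin, an inhibitor of the growth kinase mTORC1. The region inside Tsc2 (chr17:24617368-24618504) was nearly last in both KD rankings, at 0.0287 and 0.266, against 34.9 and 36.1 in the Ctrl libraries.

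Receptors and adhesion genes followed. Grik1 encodes a kainate receptor subunit for glutamate, and its region had percentiles of 22.3 and 12.4 in KD 1 and KD 2, against 63.4 and 71.5 in Ctrl 1 and Ctrl 2. Sorcs2, a sorting receptor gene, had 16.8 and 9.97 in the KD libraries, against 52.9 and 55.1 in the Ctrl libraries. Nrp2 encodes neuropilin 2, a co-receptor of semaphorins and vascular growth factors. It had 24.3 and 18.5 in the KD libraries, against 54.5 and 57.6 in the Ctrl libraries. A region 14.1 kb from Itga8, the integrin α8 gene, had 16.7 and 12.5 in the KD libraries, against 51.2 and 59.8 in the Ctrl libraries. In this group the KD 2 value was the lower of the KD pair at each gene.

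Genes of the cytoskeleton and membrane included Ank3, which encodes ankyrin G, with percentiles of 21.4 and 15.8 in KD 1 and KD 2, against 51.2 and 66.1 in Ctrl 1 and Ctrl 2. Capg, an actin filament capping protein, had 33.9 and 40.4 in the KD libraries, against 69.6 and 75.3 in the Ctrl libraries. Dnm3, the membrane-scission protein dynamin 3, had 22.3 and 18.5 in the KD libraries, against 51.2 and 57.6 in the Ctrl libraries. Fry, a large protein associated with microtubules and NDR kinases, had 22.3 and 22.9 in the KD libraries, against 51.2 and 61.9 in the Ctrl libraries. Capg was the highest of these in every library.

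A deubiquitinase and a chromatin factor were also among them. Usp44, the deubiquitinase gene, had percentiles of 6.54 and 8.11 in the KD libraries at a region 8.74 kb from the gene, against 38.04 and 38.3 in the Ctrl libraries. Taf5l, a subunit of histone acetyltransferase complexes, had 3.58 and 1.08 in the KD libraries, against 31.6 and 34.7 in the Ctrl libraries. These were weak regions in KD, with both percentiles under 10 at each gene.

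The regions without a gene within 50 kb also carried MyoD. The region at chr9:14171290-14172756 had H3K27ac percentiles of 9.34 and 9.97 in KD 1 and KD 2, against 44.1 and 53.8 in Ctrl 1 and Ctrl 2. Its MyoD percentiles were 2.62 and 0.858 in the KD libraries, against 14.3 and 44.8 in the Ctrl libraries. The region at chr8:26523600-26524562 had H3K27ac percentiles of 21.1 and 25.3 in the KD libraries, against 57.7 and 68.0 in the Ctrl libraries. The stronger of its MyoD regions stood at 65.9 and 73.3 in the KD libraries, against 88.8 and 81.2 in the Ctrl libraries, so both marks ranked lower in KD there. Of the 20 regions, 6 held a MyoD region of all 4 MyoD libraries. At the others with a gene, those of Cracr2a, Grik1, Sorcs2 and Mustn1, the KD and Ctrl MyoD values overlapped.

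The regions were spread over 1351 genes. Of these genes, 1197 had 1 region lower in KD, 130 had 2 and 24 had 3 or more, and 211 genes also had a region higher in KD. For 350 genes every kept region was lower, but 341 of them had a single kept region. Genes with a region lower in KD had a median of 3 kept regions, against 1 for all genes with a kept region. A gene with many kept regions had more chances to hold some of the 6.63% that were lower, so the counts below are a description. Zbtb20, a zinc finger repressor gene, held 7 of the regions among 32 kept ones. Fry held 5 of 15, with 1 region higher in KD, and Ank3 held 4 of 16, Dnm3 4 of 14 and Kcnma1, the gene of a calcium-activated potassium channel, 4 of 6. The 19 genes with 3 regions were Adamts5, Cpeb3, Dnah6, Fto, Gab1, Gm36722, Hlcs, Lrmda, Nfia, Pakap, Pde3a, Pde4d, Pepd, Runx1, Rxra, Sytl2, Tcf4, Tead1 and Zmynd11. Adamts5 (a proteoglycan-cleaving protease), Hlcs (the enzyme that attaches biotin) and Pde3a (a cyclic nucleotide phosphodiesterase) each had 3 of 4 kept regions lower.

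**Figure D3:**
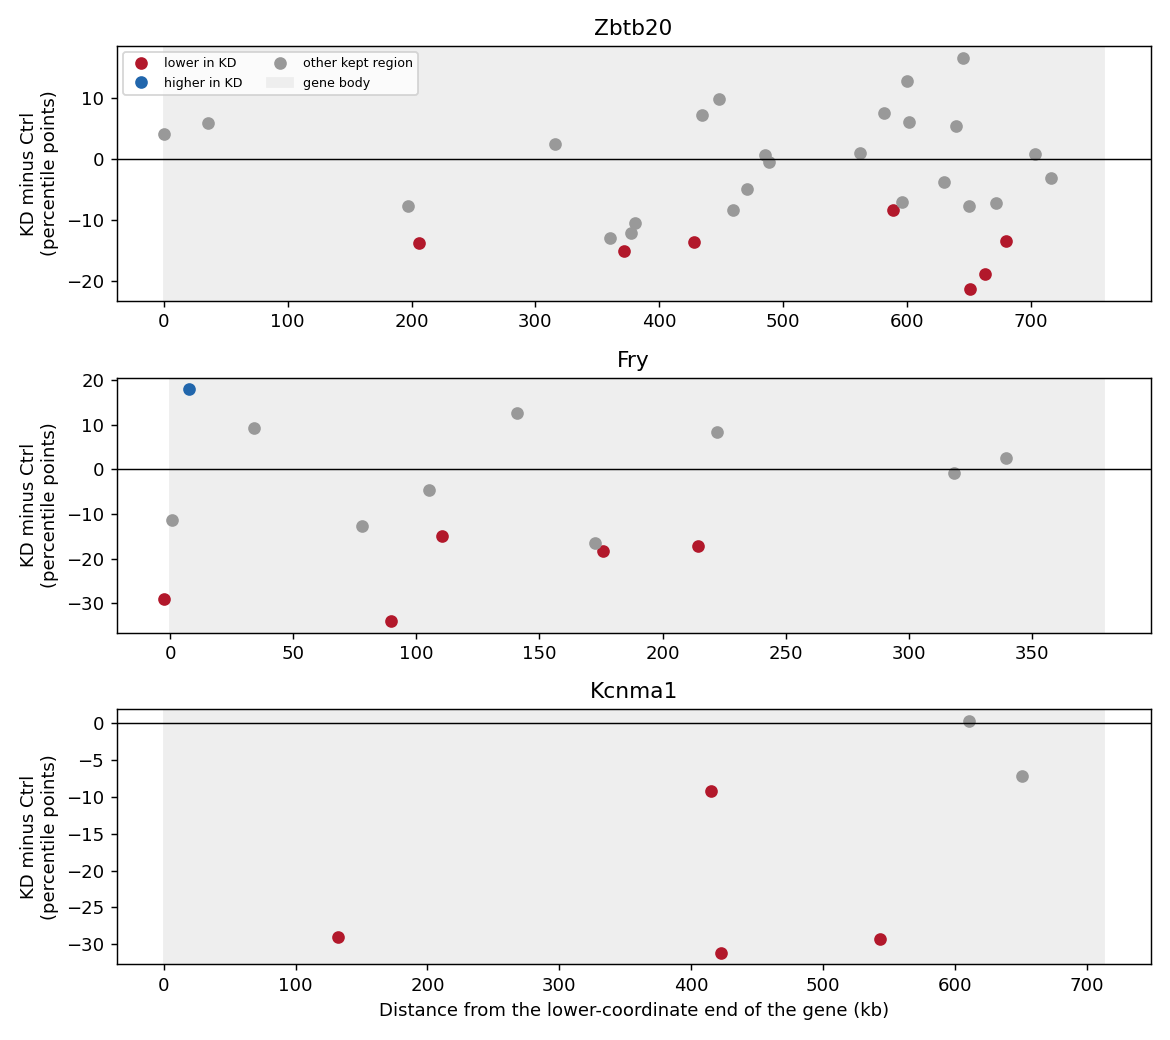
Difference between the mean KD and the mean Ctrl percentile (vertical axis, points, KD minus Ctrl) of every kept H3K27ac region of Zbtb20, Fry and Kcnma1 against its distance from the lower-coordinate end of the gene (horizontal axis, kb). Red points are regions lower in KD, blue ones higher, grey ones neither, and the shaded band is the gene body; the 7 red points of Zbtb20 lie among grey points on both sides of 0.

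Within some of these genes the regions lay far apart, and within others they lay close together. At Zbtb20 they spanned 476 kb, with gaps of 5.46 to 13.3 points, and the strongest (chr16:43461998-43467547) had percentiles of 70.1 and 73.8 in KD 1 and KD 2, against 79.3 and 81.4 in Ctrl 1 and Ctrl 2. At Runx1 the 3 regions lay within 18.3 kb. At Tcf4 the regions chr18:69664411-69665520 and chr18:69665614-69667669 were next to each other. At Kcnma1 the regions spanned 413 kb. The region with the largest gap there (chr14:23423591-23425283) had 17.9 and 18.5 in the KD libraries, against 44.1 and 50.2 in the Ctrl libraries. At Fry the KD mean was below the Ctrl mean in 10 of 15 kept regions, at Ank3 in 14 of 16 and at Zbtb20 in 19 of 32. These counts include the regions chosen for ranking lower in KD, so they were partly set by the choice. Over all kept regions the KD mean was below in 49.0%. At Rxra, which encodes a nuclear receptor that partners many others, one region (chr2:27687009-27688868) had 1.08 and 0.0957 in the KD libraries, against 26.8 and 29.6 in the Ctrl libraries.

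Neighbouring regions did not share the call in most cases. The nearest kept region was also lower in KD for 131 of the regions (7.57%), beside a background of 6.63% of kept regions, and was higher in KD for 89 (5.14%). Kept regions within 50 kb that were not themselves lower numbered 4395, and their median difference of KD minus Ctrl mean percentile was 0.295 points, against 0.159 for all kept regions. The neighbours were taken without those lower in KD, which all kept regions include. These medians therefore cannot show whether the neighbours as a whole ranked lower. By chromosome the share of kept regions lower in KD ran from 5.37% on chromosome 14 to 8.21% on chromosome 2.

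Genes of muscle and of other functions were grouped into lists, and 75 of the regions belonged to 61 listed genes. Myogenic regulators had 15 regions lower and 7 higher in KD among 130 kept ones, or 11.5% and 5.38%, beside the 6.63% and 7.01% of all kept regions. Their median difference between mean KD and mean Ctrl percentile was −2.26 points, against 0.159 for all kept regions. Across the lists this median ran from −5.17 points in immune markers to 1.98 in AP-1 and immediate early genes. It was −2.66 in fusion and neuromuscular junction genes and −2.37 in cell cycle genes, so it did not set myogenic regulators apart. Tcf4 and Tead1 held 3 of the 15, Tead4 and Rbm24 held 2 each, and genes with 1 included Mbnl1, Myod1, Pitx3 and Tcf12. Tcf4 also held 2 of the higher regions, and Myog, the myogenin gene, held 1. Tcf4 and Tcf12 encode E proteins, the partners with which MyoD binds E-boxes, and Tead1 and Tead4 encode TEA-domain factors active in muscle.

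**Figure D4:**
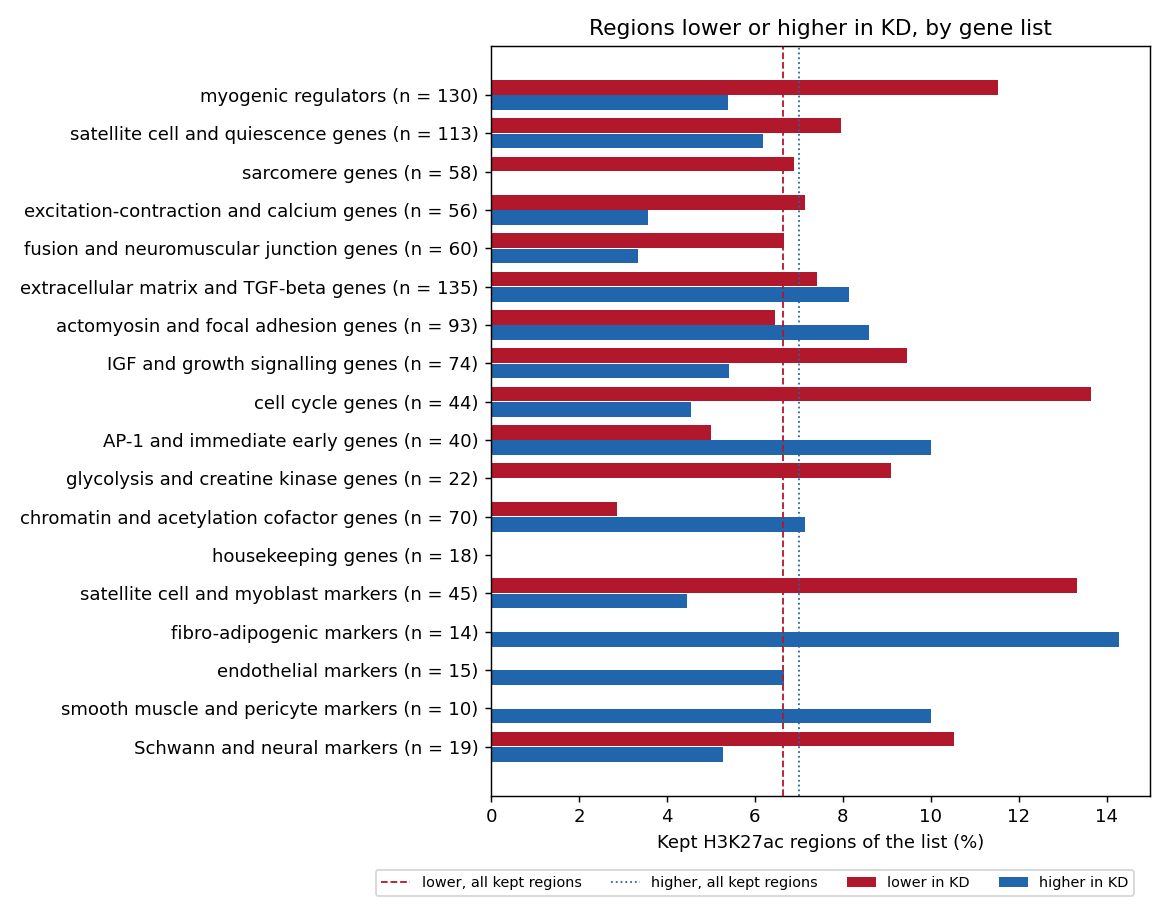
Percentage of the kept H3K27ac regions of each gene list (n beside the name) that were lower (red) or higher (blue) in KD; the vertical lines give all kept regions, 6.63% lower and 7.01% higher. Myogenic regulators, cell cycle genes and satellite cell markers had 11.5%, 13.6% and 13.3% of their regions lower, and housekeeping genes had 0 in either direction.

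The Tcf4 region with the larger gap lay inside the gene and had percentiles of 24.3 and 27.1 in KD 1 and KD 2, against 52.9 and 50.2 in Ctrl 1 and Ctrl 2. Another Tcf4 region had 21.2 and 18.5 in the KD libraries, against 42.1 and 55.1 in the Ctrl libraries. Neither held a MyoD region. Tcf12 had 10.0 and 1.96 in the KD libraries, against 21.5 and 34.7 in the Ctrl libraries. Rbm24, which binds RNA and guides splicing in muscle, had 8.26 and 18.5 in the KD libraries at a region 32.3 kb from the gene, against 29.2 and 38.3 in the Ctrl libraries. A region 3.31 kb from Myod1 (chr7:46370275-46373168), singled out after its values were seen, had a gap of 6.18 points. It had 29.7 and 29.0 in KD 1 and KD 2, against 35.9 and 58.5 in Ctrl 1 and Ctrl 2, so Ctrl 1 lay nearer to the KD libraries than to Ctrl 2. The distance of this region to LncMyoD was not measured.

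Satellite cell and quiescence genes had 9 regions lower and 7 higher among 113, near the background in both directions. Notch1, a receptor that keeps satellite cells undifferentiated, had the largest gap of all listed genes, at a region 27.7 kb away (chr2:26531538-26535725). This region had fold enrichments of 6.41 and 5.92 in KD 1 and KD 2, against 8.74 and 11.8 in Ctrl 1 and Ctrl 2. Its percentiles were 31.6 and 37.5 in the KD libraries, against 63.4 and 76.6 in the Ctrl libraries. Its stronger MyoD region stood at 94.1 and 91.6 in the KD libraries, against 90.5 and 89.7 in the Ctrl libraries, so H3K27ac ranked lower there while MyoD did not.

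Pax7, the transcription factor that defines satellite cells, had 2 regions lower and 1 higher. The one with the larger gap (chr4:139746836-139748145) had H3K27ac percentiles of 1.08 and 4.31 in KD 1 and KD 2, against 21.5 and 17.8 in Ctrl 1 and Ctrl 2. Its MyoD region had percentiles of 14.8 and 10.4 in the KD libraries, against 26.3 and 35.8 in the Ctrl libraries, and so both ranked lower in KD. Cxcr4, a chemokine receptor gene, had 45.5 and 38.9 in the KD libraries, against 63.4 and 59.8 in the Ctrl libraries. Sdc4, the syndecan 4 gene, kept a high rank, with 82.3 and 80.0 in the KD libraries, against 94.0 and 95.4 in the Ctrl libraries. Met, the receptor of hepatocyte growth factor, had 10.0 and 0.620 in the KD libraries, against 23.0 and 21.3 in the Ctrl libraries. Tcf7l2, a nuclear effector of Wnt signals, had 5.94 and 4.88 in the KD libraries, against 18.8 and 34.7 in the Ctrl libraries.

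Contractile, excitation and fusion genes had about the background share of regions lower in KD. Sarcomere genes had 4 lower and 0 higher of 58, at Mybpc1, Myh3, Myl4 and Tpm1. Excitation-contraction genes had 4 lower and 2 higher of 56, and fusion and neuromuscular junction genes 4 and 2 of 60. The lower shares of 6.90%, 7.14% and 6.67% were close to the 6.63% of all kept regions. The higher shares of 0%, 3.57% and 3.33% were below the 7.01% of all kept regions, on small counts. Mybpc1, the slow myosin-binding protein C gene, had percentiles of 56.1 and 58.9 in KD 1 and KD 2, against 72.7 and 88.3 in Ctrl 1 and Ctrl 2. Its stronger MyoD region had 81.3 and 89.2 in the KD libraries, against 91.8 and 91.0 in the Ctrl libraries. Myh3, embryonic myosin heavy chain, had H3K27ac percentiles of 40.3 and 1.32 in the KD libraries at a region 0.089 kb from the gene, against 52.9 and 58.6 in the Ctrl libraries.

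The KD libraries lay apart at Cav3 and close together at Dysf and Kcnn3. Cav3, the muscle caveolin gene, had percentiles of 32.7 and 5.34 in KD 1 and KD 2, against 46.1 and 52.7 in Ctrl 1 and Ctrl 2. Dysf encodes dysferlin, which takes part in membrane repair. It had 30.8 and 27.1 in the KD libraries, against 42.1 and 44.5 in the Ctrl libraries. Kcnn3, a small-conductance potassium channel gene, had 42.1 and 42.2 in the KD libraries, against 52.9 and 65.1 in the Ctrl libraries.

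Cell cycle genes had 6 regions lower and 2 higher among 44, or 13.6% and 4.55%, beside 6.63% and 7.01% of all kept regions. The 6 were single regions of Ccna2, Cdk2, Cdk6, Cdkn1a, Mki67 and Top2a. Top2a, which encodes topoisomerase IIα, had percentiles of 40.3 and 45.4 in KD 1 and KD 2, against 60.7 and 59.8 in Ctrl 1 and Ctrl 2. Ccna2, the cyclin A2 gene, had 32.7 and 22.9 in the KD libraries, against 46.1 and 50.2 in the Ctrl libraries. Mki67, the gene of the proliferation antigen Ki-67, had 61.1 and 46.9 in the KD libraries, against 72.7 and 73.2 in the Ctrl libraries. Cdk2, a kinase of the G1/S transition, had 45.5 and 5.26 in the KD libraries, against 66.0 and 58.6 in the Ctrl libraries. The list also contains the inhibitor Cdkn1a, so the members do not share one role in the cycle.

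Growth signalling genes had 7 regions lower and 4 higher among 74, or 9.46% and 5.41%, beside 6.63% and 7.01% of all kept regions. Fgf2, the fibroblast growth factor 2 gene, had percentiles of 15.1 and 9.97 in KD 1 and KD 2, against 35.9 and 44.5 in Ctrl 1 and Ctrl 2. Pik3r1, the regulatory subunit of PI3 kinase, had 28.7 and 14.2 in the KD libraries at a region 43.2 kb away, against 47.9 and 47.4 in the Ctrl libraries. Igf2bp2, an RNA-binding protein of the IMP family, had 34.8 and 11.7 in the KD libraries, against 46.1 and 57.6 in the Ctrl libraries.

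Matrix and actomyosin genes had about as many regions in either direction, with 10 lower and 11 higher of 135 (7.41% and 8.15%) and 6 lower and 8 higher of 93 (6.45% and 8.60%), near the 6.63% and 7.01% of all kept regions. Lamc1, the laminin γ1 gene, had 2 regions lower and 1 higher, and the lower one with the largest gap stood at 17.9 and 3.60 in KD 1 and KD 2, against 40.2 and 31.1 in Ctrl 1 and Ctrl 2. The other lower Lamc1 region had 60.0 and 58.9 in the KD libraries, against 71.7 and 76.0 in the Ctrl libraries. Lama2, the laminin α2 gene, had 7.43 and 18.5 in the KD libraries, against 29.2 and 59.8 in the Ctrl libraries. These laminin chains belong to the basement membrane around muscle fibres. Sparc, a matrix glycoprotein gene, had 10.0 and 4.88 in the KD libraries at a region 12.5 kb away, against 21.5 and 38.3 in the Ctrl libraries. Myh9, nonmuscle myosin IIA, had 65.8 and 52.9 in the KD libraries, against 82.4 and 79.2 in the Ctrl libraries. Myh10, nonmuscle myosin IIB, had 1.05 and 1.08 at an intragenic region in the KD libraries, against 16.2 and 27.4 in the Ctrl libraries. At the end of the same gene it had 34.8 and 22.9 in the KD libraries, against 46.1 and 47.4 in the Ctrl libraries. These matrix and actomyosin regions covered low and high ranks alike.

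The remaining lists had few of the regions, and their counts stand beside 6.63% lower and 7.01% higher over all kept regions. AP-1 and immediate early genes had 2 lower and 4 higher of 40, chromatin cofactor genes 2 and 5 of 70, and glycolysis genes 2 and 0 of 22. The 18 kept regions of housekeeping genes held 0 in either direction. Satellite cell and myoblast markers, which overlap the lists above, had 6 lower and 2 higher of 45 (13.3% and 4.44%), at Megf10, Pax7, Myod1 and Sdc4. All 10 of these markers had a kept region within 1 kb of a gene end. Of 10 markers each, 4 fibro-adipogenic, 2 endothelial, 3 smooth muscle, 3 immune and 2 Schwann or neural genes had one. A kept region at any place was assigned to 6, 6, 6, 3 and 6 of these markers, in the same order. Pdgfra, Kdr, Myh11 and Ptprc were among those without any. Fibro-adipogenic genes had 0 lower and 2 higher of 14 kept regions, endothelial genes 0 and 1 of 15, smooth muscle genes 0 and 1 of 10 and immune genes 0 and 0 of 3. Schwann and neural genes had 2 lower and 1 higher of 19, with Mbp at 31.7 and 46.9 in the KD libraries, against 59.2 and 68.0 in the Ctrl libraries. The part of other cell types in the ranks was not tested.

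MyoD was measured in libraries that the choice of regions did not use. Of the 1731 regions, 904 (52.2%) overlapped a MyoD region by at least 1 base, against 37.8% of regions higher in KD and 44.7% of all kept regions. A MyoD region with a peak of the library lay over 41.5% of the regions in KD 1 and 34.8% in KD 2, against 45.3% in Ctrl 1 and 44.7% in Ctrl 2. Both KD libraries were below both Ctrl libraries, and the difference of the means was −6.87 percentage points (two-sided exact permutation p = 0.333 over the 6 assignments of 4 libraries, the smallest this design allows, so it cannot reach 0.05). Over all kept regions the same shares were 36.6% and 30.6% in the KD libraries, against 38.1% and 37.7% in the Ctrl libraries, a difference of −4.32 points (exact p = 0.333). Relative to all kept regions, in an alternative added after seeing the data, the difference was −2.56 points (exact p = 0.333). In regions higher in KD the shares were 32.5% and 24.1% in the KD libraries, against 30.5% and 30% in the Ctrl libraries, and these overlapped (exact p = 1). The mixed pairing with KD 2 and Ctrl 2 above had shares of 42.9% and 34.4% in the KD libraries, against 43.8% and 42.6% in the Ctrl libraries, close to those of the regions lower in KD.

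KD 2 had the fewest MyoD peaks, 13069 against 16440 in KD 1, 17724 in Ctrl 1 and 17558 in Ctrl 2. Without MyoD KD 2 the difference in share was −3.55 points, and without MyoD KD 1 it was −10.2 points. The exact 95% binomial intervals of the shares, counting error only, were 39.1% to 43.8% in KD 1 and 32.5% to 37.1% in KD 2, against 43.0% to 47.7% in Ctrl 1 and 42.3% to 47.0% in Ctrl 2.

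**Figure D5:**
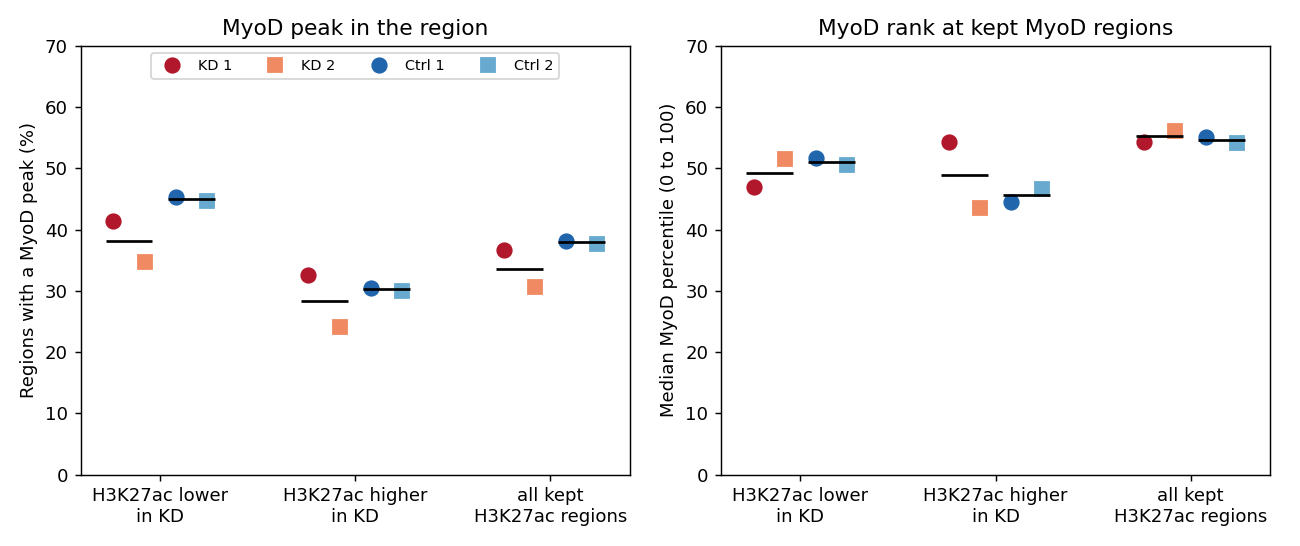
Percentage of H3K27ac regions with a MyoD peak (left, %) and median MyoD percentile at MyoD regions of all 4 libraries (right, 0 to 100) for the regions lower in KD, the regions higher in KD and all kept regions. Each point is a MyoD library of KD (red, orange) or Ctrl (blue, light blue) and each bar the mean of its group; in the regions lower in KD the share was 41.5% and 34.8% in KD and 45.3% and 44.7% in Ctrl.

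Where MyoD was kept, its rank was compared in the same way. The regions held 537 MyoD regions with a peak of all 4 MyoD libraries, and their median MyoD percentile was 46.9 in KD 1 and 51.5 in KD 2, against 51.7 in Ctrl 1 and 50.6 in Ctrl 2. The mean difference was −1.89 points (exact permutation p = 0.667), and KD 2 lay between the Ctrl libraries. Without MyoD KD 1 the difference was 1.21 points, the opposite direction. With gaps of at least 10 points required of H3K27ac it was −6.33 points, and with at least 3 points −4.38. It was −3.98 with H3K27ac and MyoD ranked by −log10 q, −2.86 with at least 0.5 of the MyoD region inside and, in an alternative added after seeing the data, −2.45 relative to all kept regions. In each of these 5 settings both KD values lay below both Ctrl values (exact permutation p = 0.333). In the last the values are offsets from all kept regions, since the medians themselves overlapped. The groups also overlapped with peaks merged within 500 bp (−2.36 points), a −log10 q of at least 5 (−3.27) and ranking by fold times width (−2.36). They overlapped too with 5 points required within each same-numbered pair (−0.954) and with any 1 H3K27ac library left out. Whether the groups overlapped thus depended on the setting. By the 5-point rule 57 of the 537 (10.6%) were lower in KD and 40 (7.45%) higher, beside 8.28% and 8.85% of all 9909 kept MyoD regions. The mixed pairings gave 7.45% to 12.1% at the same 537 regions, a range that holds both values. Over all kept MyoD regions those pairings called 10.4%, 10.6%, 7.55% and 8.23%.

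Among MyoD regions missing from one group, more lacked a peak in KD than in Ctrl, as they did over all kept H3K27ac regions. Of the 994 MyoD regions over the H3K27ac regions lower in KD, 58 (5.84%) held a peak of both Ctrl libraries and of neither KD library, and 2 (0.201%) the reverse. Over all kept H3K27ac regions these shares were 4.02% and 0.542%, and over regions higher in KD 2.95% and 1.47%. No test was made of these shares.

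At single sites the MyoD rank moved either way. Of the 518 regions with a MyoD region of all 4 libraries, 295 (56.9%) had a lower mean MyoD percentile in KD and 223 a higher one. Among all 9909 kept MyoD regions 49.6% were lower, but these include MyoD regions away from kept H3K27ac regions. The share over kept H3K27ac regions alone, or for the mixed pairings, is not given here. The region near Mroh1 had the largest drop in MyoD. It had MyoD fold enrichments of 4.50 and 5.09 in KD 1 and KD 2, against 10.6 and 12.3 in Ctrl 1 and Ctrl 2, and MyoD percentiles of 4.23 and 10.4 against 66.6 and 78.4. Its H3K27ac percentiles were 1.08 and 2.72 in the KD libraries, against 13.6 and 12.8 in the Ctrl libraries. Both measures were thus low in KD, although H3K27ac was weak there in every library.

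Metabolic and membrane genes were among the others with the largest drops. Fpgs, which encodes the enzyme that adds glutamates to folate, had MyoD percentiles of 21.6 and 3.01 in KD 1 and KD 2, against 58.1 and 57.6 in Ctrl 1 and Ctrl 2. Sh3glb1, the membrane-curvature protein endophilin B1, had 5.45 and 28.7 in the KD libraries, against 64.0 and 60.6 in the Ctrl libraries. Caskin1, a scaffold protein gene, had 2.41 and 7.76 in the KD libraries, against 53.4 and 35.7 in the Ctrl libraries. At Rxra the values were 14.4 and 43.8 in the KD libraries, against 64.0 and 72.7 in the Ctrl libraries. The drops near Gm3646, Slc14a2 and Tmem40, inside Setd3 and at a chromosome 9 region without a gene gave differences of −34.8 to −37.6 points between mean KD and mean Ctrl. At Tmem40 and at the chromosome 9 region, KD 2 lay within 5 points of the lower Ctrl library.

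The largest gains of MyoD at regions where H3K27ac ranked lower were at Pycr1, Fos, Dysf, Kcnma1 and Arid1b. Pycr1, an enzyme of proline synthesis, had MyoD percentiles of 50.6 and 41.0 in KD 1 and KD 2, against 13.9 and 1.90 in Ctrl 1 and Ctrl 2. A region 41.2 kb from Fos, an AP-1 gene, had 43.1 and 41.0 in the KD libraries, against 3.99 and 12.9 in the Ctrl libraries. Its H3K27ac percentiles were 56.9 and 70.7 in the KD libraries, against 76.6 and 83.9 in the Ctrl libraries. At Dysf the MyoD values were 67.3 and 64.0 in the KD libraries, against 36.7 and 29.5 in the Ctrl libraries. H3K27ac and MyoD therefore ranked in opposite directions at these 5 regions.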

How the data were processed

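H3K27ac and MyoD ChIP-seq peak lists of 8 libraries were used, and the 8 input libraries were not analysed here. The submitters' processing notes name mm10, MACS2 2.1.1, Bowtie2 2.3.2, SAMtools 1.3, bedtools 2.26.0 and Picard 2.9.2, with options not given in the sources used here. Per the deposited lists, 1 for each library, every peak has a fold enrichment (a linear ratio made by the authors), −log10 of its p-value and q-value, and a score in whole numbers, computed by the authors' caller. The deposited lists hold no read counts, so depth is unknown, and intervals cover counting error over regions only.

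Peaks on chromosomes 1 to 19 and X were merged where they overlapped or touched (gap 0 bp). Kept regions were ranked in each library by their largest fold enrichment, with ties averaged, using Python 3.11.15, pandas 2.3.3 and NumPy 2.4.6. Regions were assigned to an overlapped RefSeq gene body or the nearest within 50 kb, so a region over several genes carries 1 name. Gene ends are taken without strand. The MyoD comparisons used two-sided exact permutation tests over 6 assignments of libraries. The ranking code was checked on simulated data with little noise between libraries and no ties. This check does not give the error rate of the rule in the libraries used here. The alternatives tried were merging within 500 bp, −log10 q of at least 5, thresholds of 3 and 10 points, other ranking values, the replicate block and leaving out each library.

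The members and gene lists were chosen with earlier results of these data known. Named were the 20 regions with the largest gap, listed genes (values for the 30 regions with the largest gaps), the 10 largest MyoD drops and 5 largest gains, genes with 3 or more regions and the 3 regions on either side of the threshold. A few items that this rule names are not reported here.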

Additional observations from a re-analysis of the deposited data

How the results depend on the processing

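The number of regions lower in KD was 1353 to 2421 with peaks merged within 500 bp, with a −log10 q of at least 5, with a threshold of 3 points, ranked by −log10 q, ranked by fold times width, or ranked separately at gene ends and elsewhere (the last added after seeing the data). It was 693 with a threshold of 10 points, and 4405 to 5199 with 1 H3K27ac library left out, a rule that has fewer values to separate. Ranking by fold times width shared 655 of the regions. The share near gene ends was 30.01% with a −log10 q of at least 5, 23.5% with a threshold of 10 points, 22.2% ranked by fold times width, 29.1% within 2 kb and 18.4% to 41.4% with 1 library left out; the cause was not tested. The replicate block, which asks for 5 points within each same-numbered pair, gave 3023 regions lower and 3040 higher in KD, with 29.2% near gene ends, and MyoD differences of −5.89 points in share and −0.954 points in percentile. Deviations of same-numbered libraries correlated at 0.128 for H3K27ac and 0.108 for MyoD over 2 pairs, too few to show that the numbers pair the samples, although same-numbered H3K27ac libraries ranked gene ends alike. The difference in MyoD share kept its direction in all 18 alternatives, from −10.2 to −2.56 points. The −2.56 was taken relative to all kept regions, an alternative added after seeing the data. The same direction was found over all kept regions (−4.32 points), in regions higher in KD (−1.97) and in the mixed pairings (−5.30 to −3.60). The kept direction was therefore not particular to these regions. The MyoD percentile difference was −6.33, −4.38, −3.98 and −2.86 points with a threshold of 10 points, a threshold of 3 points, ranking by −log10 q and 0.5 of the MyoD region inside (exact permutation p = 0.333 each). With peaks merged within 500 bp it was −2.36 points, and with a −log10 q of at least 5 it was −3.27. Ranked by fold times width it was −2.36 points (exact permutation p = 0.667 in each of these). It was 1.21 points without MyoD KD 1 and ran from −4.57 to 1.21 with 1 library left out; the cause was not tested. Depth is unknown, and its part in the ranks was not tested.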
